A study of Mus musculus with 8 samples.

Results

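The 10 Frizzled receptor genes of the mouse, Fzd1 to Fzd10, were followed through 4 deposited peak lists, 3 of acetylated histone H3 (H3ac) and 1 of the histone deacetylase HDAC1. They were taken by name from 21883 protein-coding genes on the autosomes, X and Y. A peak was counted for a gene when it lay in the gene or within 10 kb of it. Frizzled proteins are membrane receptors that bind Wnt ligands through a cysteine-rich domain outside the cell. With the co-receptors Lrp5 and Lrp6 they recruit Dishevelled, which spares beta-catenin from degradation and lets it act with Tcf and Lef factors on target genes, while other Frizzled signals orient cells in a plane or guide axons. In embryonic stem cells Wnt signalling favours self-renewal, and later it helps to pattern the neural tube.

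The cells were mouse embryonic stem cells of strain 129/Ola on gelatin. They differentiated without serum in N2B27 medium, which favours neural fates. Chromatin immunoprecipitation with sequencing (ChIP-seq) mapped H3ac, found at active promoters and enhancers, on days 2, 4 and 6, and HDAC1, an enzyme that removes histone acetyl groups, on day 2. The antibody label of the HDAC1 libraries reads HDAC1 (3 FLAG-HDAC1), which names a FLAG-tagged form of the protein. The labels do not say whether the cells used for H3ac carried the tagged form too, so the HDAC1 and H3ac lists may come from different cells. Each of the 4 groups had 1 ChIP library and 1 input library, with no replicate and no undifferentiated cells.

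The H3ac lists of days 2, 4 and 6 held 17368, 12945 and 5553 peaks and the HDAC1 list 5286, with median widths of 591, 792, 1898 and 311 bp. The day 6 list thus stood apart, with fewer and wider peaks. The lists give no read depth, and a gene without a listed peak can still be acetylated or bound. Each peak carries the authors' score, whose scale is not stated. Scores and ranks are compared here within a list only, and a different rank in another list shows no change. As a check of the labelled cells, 6, 4 and 2 of 6 pluripotency markers had an H3ac peak on days 2, 4 and 6, against 2, 6 and 4 of 6 neural progenitor markers. Of 6 mesendoderm markers 0, 1 and 0 had one, and T, Eomes, Mixl1, Gsc and Sox17 had none in any list. Extraembryonic endoderm and trophoblast markers gave 1, 0 and 0 of 3 each. Of all protein-coding genes 54.7%, 50.5% and 30.8% had an H3ac peak on days 2, 4 and 6, so a lower count on day 6 is not particular to markers.

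Most Frizzled genes had H3ac peaks early in the time course. On day 2 an H3ac peak was listed for 8 of 10 genes (all but Fzd6 and Fzd9), on day 4 for 8 (all but Fzd1 and Fzd9), and on day 6 for 5 (Fzd2, Fzd3, Fzd6, Fzd7 and Fzd10). Of all protein-coding genes, 54.7% had such a peak on day 2 (95% Wilson interval 54.0 to 55.3%), 50.5% on day 4 (49.8 to 51.1%) and 30.8% on day 6 (30.2 to 31.4%). These intervals cover counting error over genes only, and 10 genes are too few to place the family apart from that background. The genes are mostly short. Members other than Fzd3 and Fzd6 are at most 7193 bp long, and of all genes up to 10 kb long 39.9%, 36.4% and 20.5% had an H3ac peak on days 2, 4 and 6.

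The 10 genes fell into 5 day patterns. Fzd2, Fzd3, Fzd7 and Fzd10 had an H3ac peak on every day, a pattern of 27.0% of protein-coding genes. Fzd4, Fzd5 and Fzd8 had one on days 2 and 4 and none on day 6 (17.6% of genes), and Fzd1 had one on day 2 alone (8.54%). Fzd6 had none on day 2 and one on days 4 and 6, a pattern of 1.54% of genes. Fzd9 had none on any day, as did 38.7% of genes. With the 5286 highest-scoring peaks of each list, 5 members had a peak on each day, beside 30.4%, 31.0% and 29.7% of all genes (Fzd2, Fzd7 and Fzd10 on every day). Lists cut to equal peak number thus gave no smaller number on day 6, a cut that also brought all genes to similar shares. With the higher-scoring 50% of each list 5, 6 and 2 members had a peak on days 2, 4 and 6. The shares of all genes were then 40.8%, 35.5% and 17.2%. The full H3ac lists covered 12.8, 11.89 and 11.57 Mb.

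**Figure D1:**
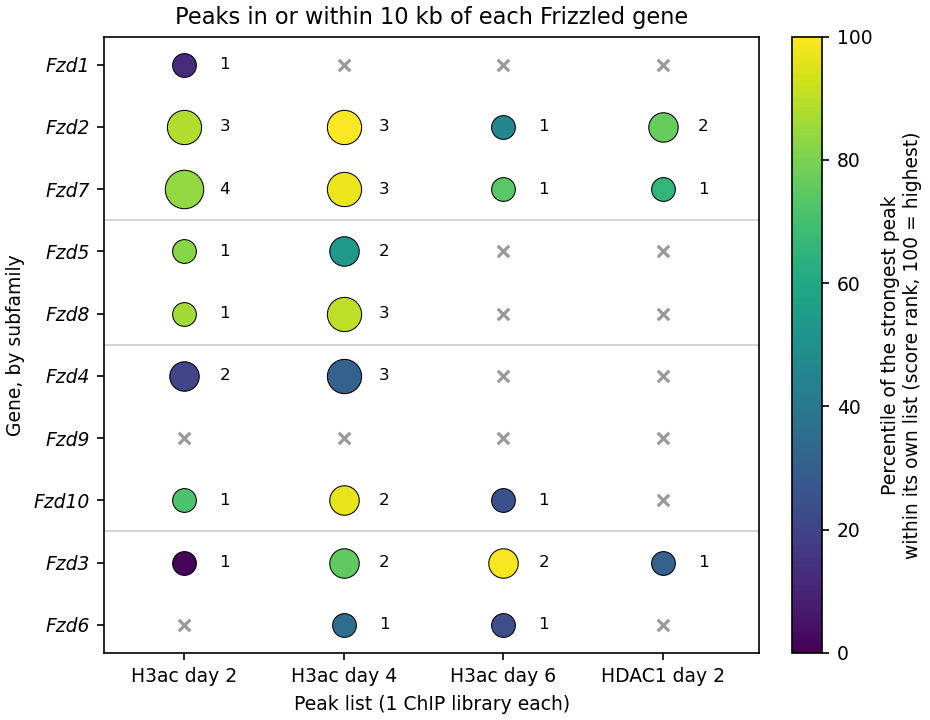
Peaks in or within 10 kb of each Frizzled gene (rows, grouped by subfamily) in each of the 4 peak lists (columns). Circle size and the number beside it give the number of peaks, colour gives the percentile of the strongest peak within its own list, and a cross marks no listed peak. Fzd2, Fzd3, Fzd7 and Fzd10 have peaks on every H3ac day, Fzd9 has none, and HDAC1 peaks lie at Fzd2, Fzd3 and Fzd7.

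The family divides by sequence into 4 subfamilies, and the first holds Fzd1, Fzd2 and Fzd7, which act together in embryonic tissues and signal through beta-catenin. Fzd7 is known as a prominent Wnt receptor of pluripotent cells. It lies on chromosome 1 from 59482147 to 59486955 (build mm10), with its start at the lower coordinate. On day 2 it carried 4 H3ac peaks, all inside the gene, with scores of 84.55, 189.56, 139.88 and 88.98. Among genes with a day 2 peak, 13.3% had 4 or more. On day 4 it had 3 peaks with scores of 140.61, 469.43 and 122.11, and the strongest, 2858 bp wide, ranked 400 of 12945. On day 6 a single peak of score 218.43 (rank 1434 of 5553) ran for 6175 bp, from 59480439 to 59486613, and spanned the ground of all earlier peaks of the gene. Fzd7 was thus marked along most of its length on each day, and the peaks inside it covered 74.0%, 82.2% and 92.9% of the gene.

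Fzd2, a close relative of Fzd7, lies on chromosome 11 from 102604431 to 102608058, with no other gene within 10 kb. Its strongest day 2 peak, of score 225.07 (rank 2068), ran from 102602531 to 102604534 and so lay beside the gene, reaching 104 bp into it. A second day 2 peak, of score 93.03, lay inside the gene. On day 4 the highest-scoring Frizzled peak of that list, of score 720.07 and rank 96 of 12945, was 2995 bp wide and lay within Fzd2, from 102604522 to 102607516. Peaks of score 241.52 and 62.03 lay on either side of it. On day 6 a single peak of score 114.48 (rank 2987, below the median score of 123.73) ran for 5287 bp across the gene. The share of Fzd2 inside H3ac peaks was 28.8%, 91.5% and 94.3% on days 2, 4 and 6. A distal day 2 peak, of score 65.24, lay 9163 bp from the gene, the farthest peak counted for any member. The nearest peak left out by the 10 kb window lay 13963 bp from Fzd5 on day 2, with a score of 55.90.

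Fzd1 differed from both. On chromosome 5 from 4753839 to 4758216, it had 1 day 2 peak of 503 bp, with a score of 54.07 and rank 15271 of 17368, near the lowest listed score of 50. The midpoint of that peak lay 583 bp downstream of the start. No peak of days 4 or 6 lay nearer than 560406 bp, and the nearest HDAC1 peak was 218031 bp away. Within this subfamily Fzd2 and Fzd7 were marked on every day and Fzd1 by a single peak near the threshold of the day 2 list.

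**Figure D2:**
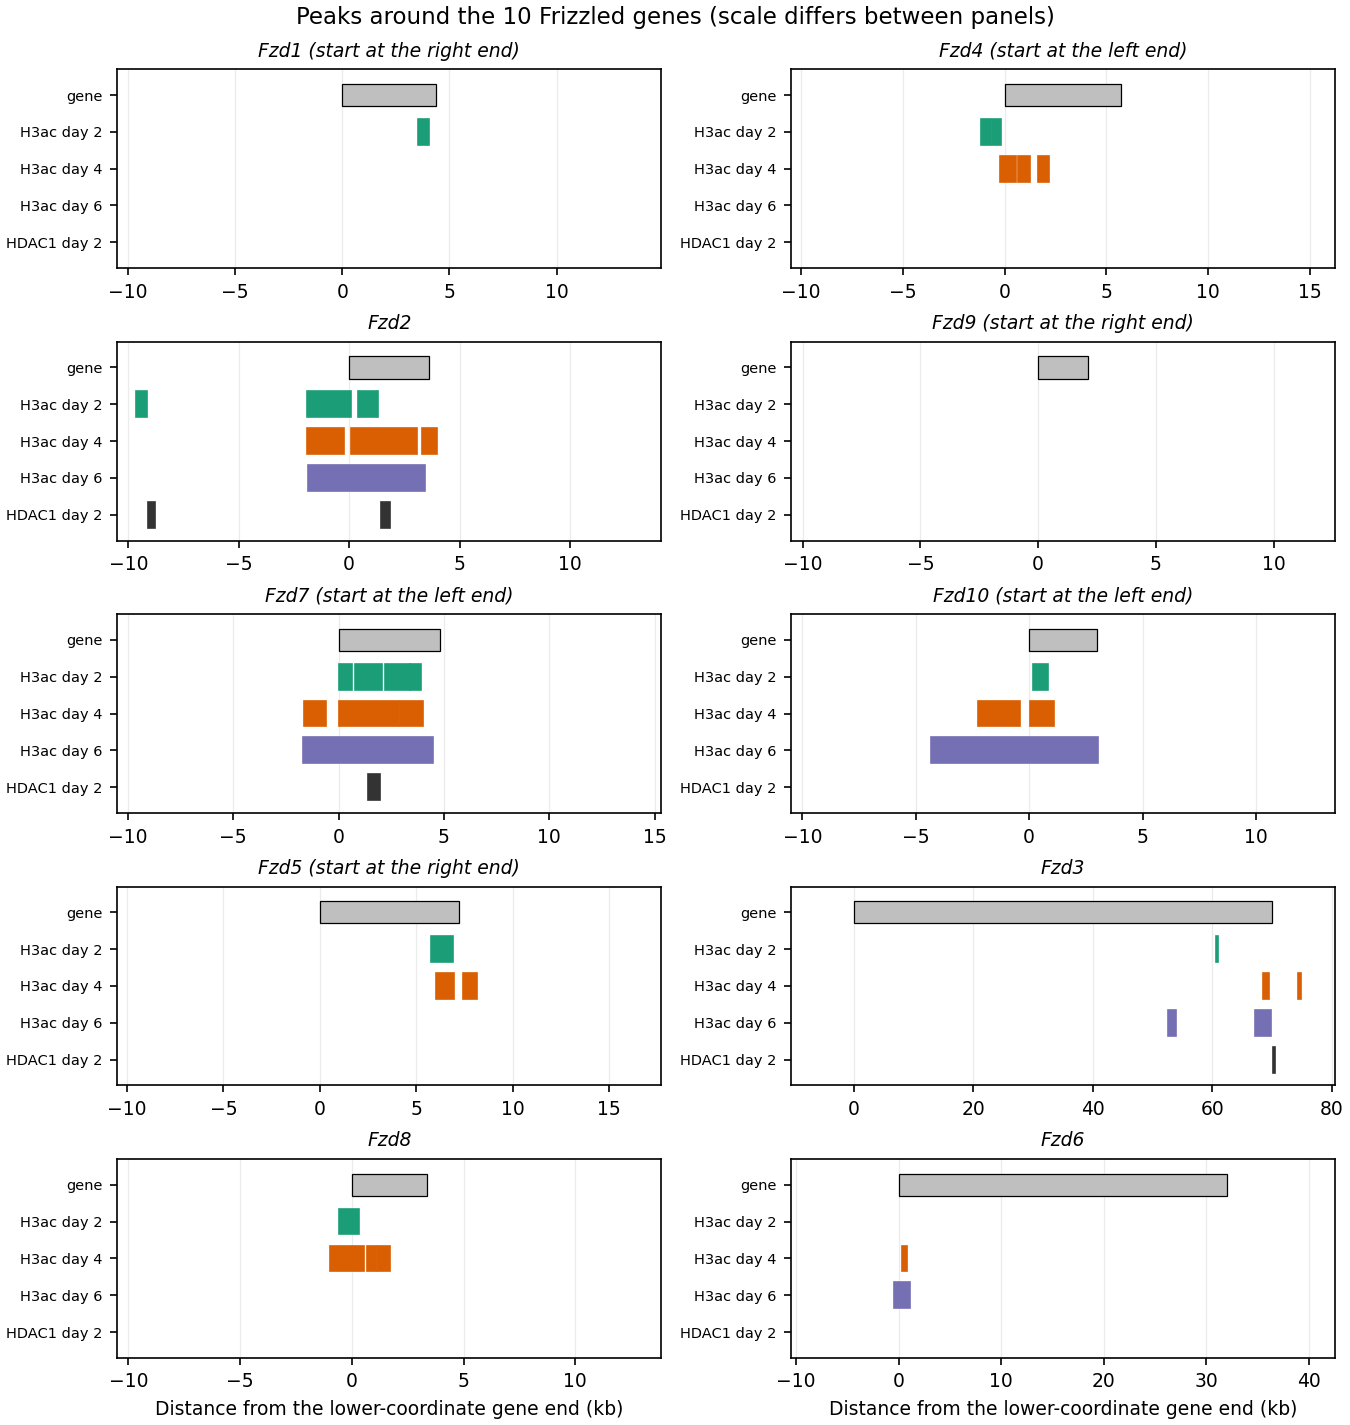
Position of every peak counted for the 10 genes, as distance in kb from the lower-coordinate end of each gene (grey bar), with 1 row per peak list and a scale that differs between panels. Each coloured bar is 1 peak drawn to its width. The single day 6 peaks of Fzd2, Fzd7 and Fzd10 each overlap more than 1 day 4 peak, and Fzd9 has no peak.

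The annotated starts of Fzd7, Fzd10, Fzd1 and Fzd9 are printed to set genes with peaks on every day beside a gene with 1 weak peak and a gene with none. Each window of 300 bases (250 before and 50 after the start, RefSeq, build GRCm38.p6, read 5′ to 3′ on the strand of the gene) is in lower case. Capitals mark any copy, on either strand, of the GC box GGGCGG, the CCAAT box CCAAT, the core CTTTGA of Tcf and Lef motifs, or the TATA box TATAAA, and copies of the GC box may overlap each other. The windows are chr1:59481897-59482196 (plus strand) for Fzd7, chr5:128600856-128601155 (plus) for Fzd10, chr5:4758167-4758466 (minus) for Fzd1 and chr5:135250998-135251297 (minus) for Fzd9.
Fzd7: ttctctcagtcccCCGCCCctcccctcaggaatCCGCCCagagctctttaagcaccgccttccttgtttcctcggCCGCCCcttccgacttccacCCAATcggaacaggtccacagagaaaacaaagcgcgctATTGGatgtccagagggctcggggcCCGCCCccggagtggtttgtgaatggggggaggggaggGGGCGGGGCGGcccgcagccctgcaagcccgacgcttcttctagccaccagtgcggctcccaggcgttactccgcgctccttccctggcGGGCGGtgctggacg
Fzd10: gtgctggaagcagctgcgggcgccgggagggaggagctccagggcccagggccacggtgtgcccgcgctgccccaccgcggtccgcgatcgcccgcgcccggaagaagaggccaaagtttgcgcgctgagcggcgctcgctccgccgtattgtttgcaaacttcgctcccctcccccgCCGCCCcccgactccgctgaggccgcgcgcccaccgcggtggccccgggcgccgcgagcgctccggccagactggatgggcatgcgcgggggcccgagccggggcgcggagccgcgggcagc
Fzd1: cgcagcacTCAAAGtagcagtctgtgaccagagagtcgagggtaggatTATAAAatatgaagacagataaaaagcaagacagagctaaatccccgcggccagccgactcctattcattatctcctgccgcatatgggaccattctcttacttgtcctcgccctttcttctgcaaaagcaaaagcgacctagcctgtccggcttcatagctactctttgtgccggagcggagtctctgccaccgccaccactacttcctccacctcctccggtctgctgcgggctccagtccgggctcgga
Fzd9: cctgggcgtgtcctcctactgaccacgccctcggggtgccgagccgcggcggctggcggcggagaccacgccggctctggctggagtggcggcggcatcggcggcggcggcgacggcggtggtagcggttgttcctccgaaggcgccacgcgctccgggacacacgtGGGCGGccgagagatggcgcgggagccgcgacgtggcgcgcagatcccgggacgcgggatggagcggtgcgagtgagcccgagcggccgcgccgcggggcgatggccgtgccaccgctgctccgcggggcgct

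The window of Fzd7 held 7 GC boxes and 2 CCAAT boxes, and those of Fzd10 and Fzd9 held 1 GC box each and no CCAAT box. The window of Fzd1 held no GC box, 1 Tcf core and 1 TATA box. Motifs were counted as letters anywhere in the window, whatever their distance from the start. Both Fzd1 matches lay near the upstream end of its window, far from the start, and their function was not tested. A GC box was found in 46.2% of 21262 such windows of protein-coding genes, a CCAAT box in 38.2%, a Tcf core in 14.4% and a TATA box in 12.6%. The windows of Fzd4 and Fzd5, not printed, held 8 and 10 GC boxes and 1 CCAAT box each. The number of CpG dinucleotides was 16 for Fzd1, 24 for Fzd7, 32 for Fzd4, 38 for Fzd5, 45 for Fzd10 and 53 for Fzd9, where the median window has 13. Fzd9, the gene with no peak in any list, thus had the most CpG of the 6 windows (percentile 99.5 of all windows), and Fzd1 the fewest (percentile 56.3). Fzd2, Fzd3, Fzd6 and Fzd8 had no window in the table.

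At several of these starts the H3ac peaks flanked the window and did not fill it. Fzd7 peaks covered 6 of its 300 bases on day 2, 20 on day 4 and all 300 on day 6. At Fzd10 the numbers were 0, 0 and 300, and at Fzd5 0, 46 and 0. At Fzd4 they were 85, 285 and 0. In all, 2 of the 6 Frizzled windows were overlapped by an H3ac peak on day 2, 3 on day 4, 2 on day 6 and 0 by an HDAC1 peak, beside 29.0%, 27.1%, 21.3% and 4.75% of all protein-coding windows. A day 2 peak lay within 1500 bp of the start of 5 of the 6 genes and overlapped the window at 2 of them. For all protein-coding starts with a day 2 peak that near, 69.0% of windows were overlapped, with 68.1% on day 4 and 90.3% on day 6, when peaks were wider. Of the Frizzled windows with a peak that near, 3 of 4 were overlapped on day 4 and 2 of 2 on day 6.

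Fzd5 and Fzd8 form the second subfamily and signal through beta-catenin. Fzd5 is needed in the mouse for the vessels of the yolk sac and acts in the eye, where Fzd8 is its partner. Both had H3ac peaks on days 2 and 4 and none within 10 kb on day 6. Fzd5, on chromosome 1 from 64730558 to 64737750, had a day 2 peak of score 178.73 (rank 3101) with its midpoint 860 bp downstream of the start. On day 4 it had peaks of score 110.16 (rank 6011) and 64.37 on either side of the start. The nearest day 6 peak lay 38326 bp away. At Fzd8, on chromosome 18 from 9212856 to 9216201 and with no other gene within 10 kb, the day 2 peak had a score of 207.29 (rank 2423) and crossed the lower-coordinate end of the gene. On day 4 a wider peak of score 291.82 (rank 1305) lay over the same end, and peaks of score 63.06 and 53.30 followed inside the gene. H3ac peaks covered 9.09% of Fzd8 on day 2 and 45.4% on day 4, against 15.2% and 13.2% of Fzd5. The nearest day 6 peak to Fzd8 lay 232524 bp away.

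The third subfamily holds Fzd4, Fzd9 and Fzd10. Fzd4 is the receptor for Norrin in the growth of retinal vessels, and Fzd10 is expressed in the dorsal neural tube. Fzd10, on chromosome 5 from 128601106 to 128604093, had 1 day 2 peak of score 127.97 (rank 4923). On day 4 it had a peak of score 297.35 (rank 1254) inside the gene, from 53 bp after the start, and a stronger one of score 436.74 (rank 486 of 12945) upstream. That upstream peak overlapped the long noncoding RNA gene Fzd10os, which lies 419 bp from Fzd10, so the peak cannot be assigned to either gene. On day 6 a peak of 7359 bp, at percentile 99.7 of width among day 6 peaks, covered all of Fzd10 and the adjoining end of Fzd10os, with a low score of 77.50 (rank 4175 of 5553). Fzd10 was thus marked on every day, and the share of the gene inside peaks was 21.5% on day 2, 35.2% on day 4 and the whole gene on day 6.

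Fzd4, on chromosome 7 from 89404366 to 89410110, had weak peaks on days 2 and 4. Its day 2 peaks scored 55.15 and 57.72 and lay 688 and 166 bp upstream of the gene. Both lay in Tmem135, which overlaps the first 338 bp of Fzd4, so they cannot be assigned to either gene. On day 4 Fzd4 had 3 peaks of score 54.01, 69.52 and 55.47, of which the last 2 lay inside Fzd4 and clear of Tmem135. The strongest ranked 8955 of 12945. Fzd9, on chromosome 5 from 135248938 to 135251047, was the only member with no peak in any list. The nearest H3ac peaks lay 59840, 59671 and 59083 bp away on days 2, 4 and 6, and the nearest HDAC1 peak lay 129672 bp away. The protein-coding gene Baz1b lies 2807 bp from Fzd9.

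Fzd3 and Fzd6, the fourth subfamily, are receptors of planar cell polarity. In the mouse they act together in closure of the neural tube, Fzd3 also guides axons and Fzd6 orients hair. They are the longest members, at 70023 and 32044 bp. Fzd3, on chromosome 14 from 65192441 to 65262463, had a day 2 peak that barely entered the list, with a score of 50.62 and rank 17137 of 17368, and it lay 9021 bp inside the higher-coordinate end. On day 4 a peak of score 183.26 (rank 3166) lay 553 bp inside that end. On day 6 a peak of 2583 bp, from 65259635 to 65262217, contained the place of the day 4 peak and had a score of 900.06, rank 46 of 5553. It was the highest-ranked Frizzled peak of the day 6 list, and a weaker day 6 peak of score 78.66 lay farther inside the gene, from 65245088 to 65246288. A second day 4 peak, of score 64.17, lay 4315 bp outside Fzd3 and within Fbxo16, near an end of that gene, so it cannot be assigned to either.

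Fzd6, on chromosome 15 from 39006149 to 39038192, was the only member with H3ac on later days and not on day 2. Its day 4 peak, of 495 bp and score 74.81 (rank 8392), began 350 bp inside the lower-coordinate end, and the day 6 peak, of 1537 bp and score 76.15 (rank 4242), crossed that end. The nearest day 2 peak lay 52623 bp away. The noncoding gene Gm26704 overlaps 921 bp of this end of Fzd6, and both peaks lay over both genes. A day 6 peak without a day 2 peak was found for 2.32% of protein-coding genes. If the day 2 peaks of low score were left out by taking lists of equal length, Fzd3 also had a day 6 peak and no day 2 peak.

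**Figure D3:**
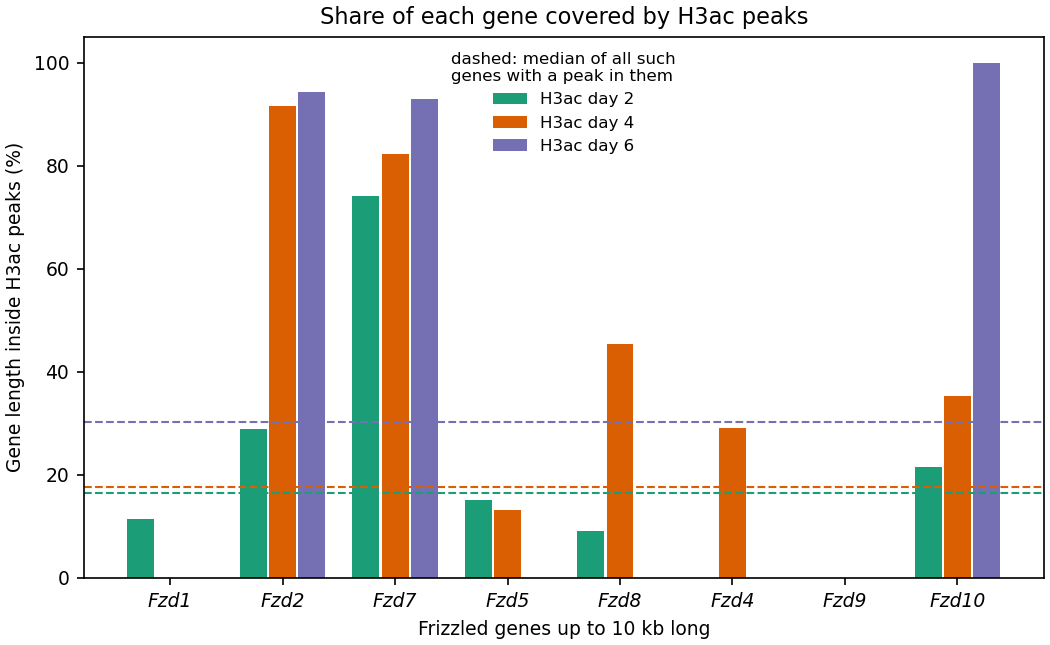
Share of the gene length inside H3ac peaks (%) for the 8 Frizzled genes up to 10 kb long, with 1 bar per day and no bar where no peak overlapped the gene. Dashed lines give the median over all protein-coding genes up to 10 kb long with a peak in them, 16.5%, 17.7% and 30.3% on days 2, 4 and 6. On day 6 Fzd2 reaches 94.3% and Fzd7 92.9%, and Fzd10 is covered whole.

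Coverage of the gene body varied widely between members. For all protein-coding genes up to 10 kb long with an overlapping H3ac peak, the median share inside peaks was 16.5% on day 2 (upper quartile 28.8%, 2295 genes), 17.7% on day 4 (30.6%, 2078 genes) and 30.3% on day 6 (53.9%, 1089 genes). Fzd7 stood at percentiles 96.4, 96.8 and 90.8 of these genes and Fzd2 at 75.1, 97.8 and 91.5. Fzd10 stood at 62.2, 80.1 and 96.3, and Fzd8 at 21.9 and 87.1 on days 2 and 4. Fzd1 and Fzd5 lay below the median wherever they had a peak. The day 6 values rest on a list whose peaks were wider throughout, and the part of that width in the coverage was not tested. The share covered also depends on gene length, and Fzd10, Fzd2 and Fzd7 are 2988, 3628 and 4809 bp long. No comparison with genes of like length was made.

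Day 4 peaks overlapped 10 of the 14 day 2 peaks at Frizzled genes, beside 50.2% of all day 2 H3ac peaks. Day 6 peaks overlapped 7 of the 14, beside 35.0%. The 7 were 4 at Fzd7, 2 at Fzd2 and 1 at Fzd10, under 1 wide day 6 peak at each gene. Peaks of 1 gene are not independent units, so these counts do not set the family apart from that background. The 4 day 2 peaks without a day 4 counterpart were the single peaks of Fzd1 and Fzd3, the distal peak of Fzd2 and 1 of the 2 upstream peaks of Fzd4, with scores between 50.62 and 65.24, all below the median score of 80.21. In the other direction day 2 peaks overlapped 8 of the 19 day 4 peaks, beside 63.9% of all day 4 peaks. At Fzd8 the single day 2 peak, and at Fzd7 each day 2 peak, lay in or across a day 4 peak.

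HDAC1 on day 2 was set beside H3ac of the same day, to see whether the deacetylase lay at acetylated receptor genes, although the cells may differ in the tag. HDAC1 peaks were listed at 3 of 10 Frizzled genes, Fzd2, Fzd3 and Fzd7. Of all protein-coding genes 21.5% had one, and of those up to 10 kb long 14.7%. With 10 genes the family cannot be placed apart from either share. The 3 genes were among the 4 with H3ac on every day, and 35.1% of all genes of that pattern had an HDAC1 peak. Fzd10, the fourth, had none within 93769 bp. Fzd3 was among the 4 only through its day 2 peak of score 50.62 (rank 17137 of 17368), and it left that set in lists of equal length. The Fzd7 peak, of score 75.85 (rank 1825 of 5286), lay from 59483557 to 59484107, and all of its 551 bp were inside the strongest day 2 H3ac peak of the gene and inside the H3ac peaks of days 4 and 6. The Fzd2 gene held a peak of score 89.58 (rank 1232) from 102605889 to 102606260. It lay 134 bp beyond the day 2 H3ac peak and inside the strong day 4 peak and the day 6 peak. A second HDAC1 peak at Fzd2, of score 59.47, lay 8782 bp outside the gene and 58 bp from the distal day 2 H3ac peak.

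At Fzd3 the HDAC1 peak was narrow (265 bp) and low in score (57.04, rank 3668), and it lay from 65262667 to 65262931, 204 bp outside the higher-coordinate end. The later H3ac peaks lay just inside that end, 756 bp away on day 4 and 449 bp away on day 6, and the day 2 H3ac peak was 9224 bp away. In all, 1 of the 4 HDAC1 peaks overlapped a day 2 H3ac peak. Of HDAC1 peaks on the autosomes, X and Y, 27.7% did so (1464 of 5285, 95% Wilson interval 26.5 to 28.9%). A day 2 H3ac peak lay within 1 kb of 3 of the 4. No share over all HDAC1 peaks was computed for that looser rule, so nothing is read from it.

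**Figure D4:**
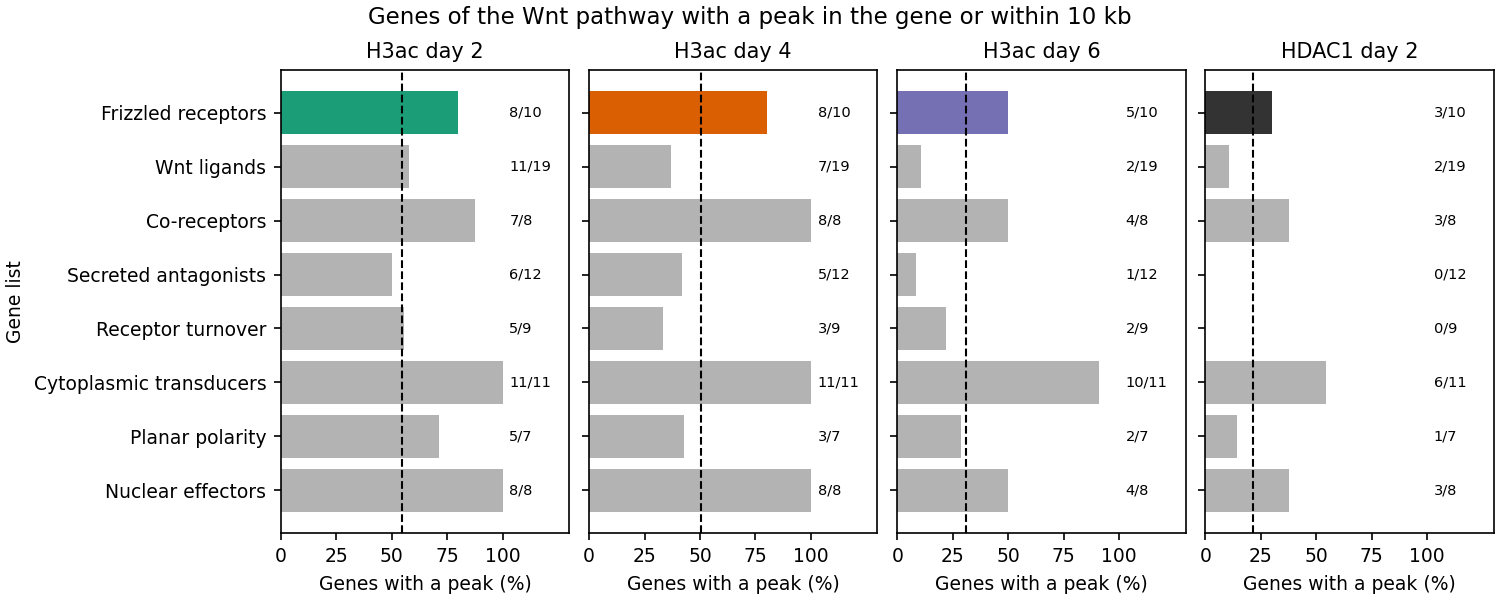
Share of genes (%) with a peak in the gene or within 10 kb, for the Frizzled genes (coloured) and 7 lists of other Wnt pathway genes (grey), with 1 panel per peak list and counts at the right. Dashed lines give the share of all protein-coding genes, 54.7%, 50.5%, 30.8% and 21.5%. On day 6 the Frizzled genes (5 of 10) stand level with the co-receptors and the nuclear effectors (4 of 8 each). The cytoplasmic transducers (10 of 11) stand highest and the secreted antagonists (1 of 12) lowest.

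A further 75 genes listed from general knowledge, 74 of the Wnt pathway and Smo of the Hedgehog pathway, were counted the same way. H3ac peaks of days 2, 4 and 6 were present at 54, 46 and 26 of them (72.0%, 61.3% and 34.7%), and an HDAC1 peak at 16 (21.3%). With the 5286 highest-scoring peaks of each list the H3ac counts were 23, 30 and 26, beside 30.4%, 31.0% and 29.7% of all genes. That cut brings all genes to similar shares, so nothing is read from the order of days. The Wnt ligands gave 11, 7 and 2 of 19, led by Wnt10b (day 4 score 308.16, rank 1172) and Wnt5b (280.88, rank 1408), while Wnt1, Wnt2, Wnt4, Wnt5a, Wnt7b and Wnt11 had none in any list. Co-receptors and alternative receptors gave 7, 8 and 4 of 8. Among them Ptk7, a planar polarity receptor, had a day 2 peak of score 574.66 (rank 227), and Lrp5 a day 6 peak of 352.69 (rank 645). Secreted antagonists of Wnt signalling gave 6, 5 and 1 of 12, led by Sfrp2 (day 4 score 255.46). Sfrp4 was the one with a peak on day 6, of score 54.71.

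Genes that control how long Frizzled proteins stay at the cell surface gave 5, 3 and 2 of 9. Rnf43, a ligase that removes Frizzled from the membrane, and Lgr4, which receives the R-spondin signal against it, had H3ac peaks on every day. The related ligase gene Znrf3 had them on days 2 and 4. Cytoplasmic transducers and destruction complex genes gave 11, 11 and 10 of 11, and Apc2 was the one without a day 6 peak. Among these Ctnnb1, which encodes beta-catenin, had day 2 peaks of score 53.29 at most (rank 15639 of 17368). Its day 4 peak scored 627.79 (rank 155 of 12945), and scores of the 2 lists are not comparable. Planar polarity genes gave 5, 3 and 2 of 7, and nuclear effectors 8, 8 and 4 of 8. Smo, the Hedgehog pathway's relative of the Frizzled receptors, had a peak in all 4 lists, with a day 6 score of 481.00 (rank 311).

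Likeness to each Frizzled gene was taken as the same presence or absence in all 4 lists, then as the mean difference in percentile of the strongest peak over the lists where both had one. Of the 75 listed genes, 9 shared the pattern of Fzd2, Fzd3 and Fzd7, and the closest to Fzd7 was Wnt10b (4.02 points over 4 lists). The closest to Fzd2 was Ptk7 (11.9 points), and the closest to Fzd3 was Apc, at a wide 35.6 points. For the pattern of Fzd4, Fzd5 and Fzd8, shared by 11 genes, the closest were Prickle1 to Fzd4 (5.98 points over 2 lists), Adgra2 to Fzd5 (17.0) and Tcf7l2 to Fzd8 (3.31). Lgr4 was closest to Fzd10 (9.16 points over 3 lists) and Wnt10a to Fzd1 (6.76, 1 list). The pattern of Fzd6 was shared by 2 genes, the Wnt receptor gene Ryk and the planar polarity gene Vangl2, whose day 4 peak scored 398.13 (rank 641). The 15 listed genes without a peak in any list shared the pattern of Fzd9.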

How the data were processed

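The study sequenced 4 ChIP and 4 input libraries of differentiating mouse embryonic stem cells. Reads were aligned with Bowtie 0.12.8 to mm10, per the submitters' processing notes. Each deposited list gives chromosome, start, end, name and the authors' peak score for 1 ChIP library. Peak names begin with MACS, a peak caller. In the sources used here its version, threshold and use of input are not given. The list was assigned to its library by the part of the title in the file's name. The deposited score was used for ranks and filters inside 1 list.

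Genes and promoter windows came from RefSeq tables of GRCm38.p6, whose coordinates equal those of mm10. Of the 10 members 6 had a window, which gave the strand, and no exons or transcripts were used. Starts were made 1-based. Overlap meant at least 1 bp, and shares have 95% Wilson intervals. With 1 library per group no test was made. Likewise no change between days could be tested. The pairing of peaks with genes was tested on simulated data, where 200 of 200 planted peaks were handled correctly. Python 3.11.15, pandas 2.3.3 and scipy 1.17.1 were used.

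Members, gene lists, markers and alternatives were chosen with earlier results of these data known. Genes were named by a rule: all members, neighbours within 10 kb, up to 4 genes per pathway list by best H3ac rank, and genes sharing a member's pattern.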

Additional observations from a re-analysis of the deposited data

How the results depend on the processing

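Of 70 recomputed counts, 57 stayed within 1.5 times the reported one. With windows of 0, 5 or 20 kb around the gene, with each peak given to its nearest protein-coding gene, or with peak midpoints, the counts of Frizzled genes per H3ac list stayed at 7 or 8, 8 and 5. Peak number mattered more. With equal numbers of top-scoring peaks 5 members had a peak on day 2 and 5 on day 4, beside 30.4% and 31.0% of all genes. Of the members, 2 had one on day 2 and not day 6, and 2 on day 6 and not day 2. No share over all genes was computed for these 2 patterns. The counts over the 75 other listed genes were 23 on day 2, 30 on day 4 and 26 on day 6. That cut brought all genes to similar shares (29.7% on day 6), so nothing is read from the order of days. With the higher-scoring 50% of each list 5 members had a peak on day 2 and 2 on day 6, beside 40.8% and 17.2% of all genes. Of the members, 1 (Fzd7) had a peak on both and on every day. Every peak at Fzd1, Fzd4 and Fzd6 thus lay in the lower-scoring part of its list. So did the day 2 peak of Fzd3 and the day 6 peaks of Fzd2 and Fzd10. Without the day 6 list 7 members had a peak on every remaining day, beside 44.6% of all protein-coding genes. This alternative was added after the data were seen. In the gene body alone 9 of the listed genes had an HDAC1 peak, beside 13.8% of all protein-coding genes. With the 10 kb window, counting a day 2 H3ac peak within 1 kb in place of an overlap gave 3 of the 4 HDAC1 peaks at Frizzled genes. The share over all HDAC1 peaks was not computed for that rule. Peaks per gene and list stayed within 1.5 times in 246 of 280 cases. No paired analysis was possible because each group has 1 library. Depth is unknown, so an unlisted peak is no evidence of absence.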
